A study of Arabidopsis thaliana with 4 samples.

Results

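The genes described here form a run of the Arabidopsis plastid genome from rps19 to rpoA, 7 genes that each had a probe set annotated to that gene alone, among 69 such plastid probe sets and 22746 probe sets tested. Signals were measured on 4 Affymetrix arrays of shoot RNA from Arabidopsis thaliana in the Col-0 background. In 2 of the arrays the plants overexpressed bHLH122, which encodes a transcription factor of the basic helix-loop-helix family, and the other 2 held untreated Col-0 wild type. Seeds of both groups were stratified for 96 h, and plants spent 1 week on MS medium and 2 weeks in soil before shoots were collected. The source labels call the overexpressor plants independent lines, but both titles name line 18, so line was not a term of any fit. The promoter of the transgene and the number of plants behind each array are not stated in the labels. No probe set in the annotation is paired with bHLH122, so the overexpressed transcript itself is not analysed here. The labels do not say whether arrays of a group came from separate plantings, so a p-value covers the spread between these RNA samples alone, and part or all of that spread may be technical.

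The plastid keeps a small genome of its own, and its ribosome resembles that of bacteria, with some proteins encoded in the plastid and the others in the nucleus. The genes from rpl23 through rps19 to rpoA are a relic of bacterial ribosomal protein operons and are read from 1 strand as long transcripts that are then processed. Beyond rpoA lie the genes of the psbB operon, most of which are read towards it from the opposite strand. The plastid-encoded polymerase, whose alpha subunit is made from rpoA, transcribes much of the plastid genome together with a nuclear-encoded phage-type polymerase.

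The 7 genes were chosen by their position in the run and by their higher signals in the overexpressors, the same contrast described here, so their values are a description and carry no test. All 7 were higher on both overexpressor arrays than on either wild-type array. The difference in mean log2 signal ran from 2.01 for rpoA to 4.42 for rpl22, which is 4.04-fold to 21.5-fold, with a median of 2.85. The median over all 22746 probe sets was -0.016. The shoot RNA is a bulk sample, so a change in the number of plastids or cells of a type and a change in RNA per plastid or cell cannot be told apart. Signals are log2 values of 1 probe set each, and probe sets differ in brightness for the same amount of RNA. Levels are therefore compared between groups for 1 gene and not between genes.

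At the upstream end of the run, rps19 encodes a protein of the head of the small ribosomal subunit. Its log2 signal was 10.13 and 10.15 on the overexpressor arrays, against 6.89 and 7.20 on the wild-type arrays. The overexpressor arrays nearly coincided, and both stood far above the wild-type arrays. Overexpressors averaged 10.14 ± 0.02, and wild type averaged 7.05 ± 0.22 (SD, n = 2 each), a difference of 3.09 on the log2 scale (SE 0.13) or 8.54-fold. Every SE given here is the moderated value from limma, which shares variance between probe sets. It therefore does not follow from the SDs of the gene alone.

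The gene rpl22 encodes a large-subunit protein that lines the exit tunnel for new polypeptides in the bacterial ribosome, and it had the highest positive difference of all probe sets tested. The log2 signal was 9.991 and 9.999 in the overexpressors, against 5.66 and 5.49 in wild type. These are linear signals of 1018 and 1024 in the overexpressors and 50.5 and 44.8 in wild type. The difference was 4.42 (SE 0.10), or 21.5-fold, and the SD was 0.0059 in the overexpressors and 0.12 in wild type. In wild type the probe set lay close to the array median, which was 5.29 and 5.32 on the wild-type arrays.

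The gene rps3 encodes a small-subunit protein at the entry site of the messenger RNA in bacteria. It had log2 signals of 10.17 and 10.20 in the overexpressors, against 6.84 and 6.57 in wild type. The groups lay 3.48 apart on the log2 scale (SE 0.12, 11.1-fold), which was the next highest positive difference after rpl22 among all probe sets tested.

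The middle of the run holds 3 genes for large-subunit proteins with differences close to one another. The protein of rpl16 lies near the peptidyl transferase centre in bacteria. For rpl16 the log2 signal was 7.63 and 7.55 in the overexpressors, against 4.93 and 4.85 in wild type, a difference of 2.70 (SE 0.10).
The protein of rpl14 sits at the interface of the ribosomal subunits in bacteria, and its gene had the widest spread between arrays of a group. The values were log2 signals of 8.02 and 7.54 in the overexpressors, against 5.12 and 4.75 in wild type, a difference of 2.85 (SE 0.20). The smallest of these proteins is that of rpl36, a zinc-binding protein in bacteria. For rpl36 the log2 signal was 9.14 and 9.17 in the overexpressors, against 6.32 and 6.42 in wild type, a difference of 2.79 (SE 0.10). In wild type rpl16 and rpl14 were below the array median and above the lower quartile, which was 3.53 and 3.50 on the wild-type arrays. They were the only 2 of the 7 that lay below the median on both wild-type arrays. All 7 were above the upper quartile on both overexpressor arrays.

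At the downstream end, rpoA had the smallest difference of the 7. The arrays gave log2 signals of 11.11 and 10.95 in the overexpressors, against 8.91 and 9.12 in wild type. Overexpressors averaged 11.03 ± 0.11, and wild type averaged 9.01 ± 0.14 (SD, n = 2 each), a difference of 2.01 (SE 0.12, 4.04-fold). On the linear scale its signals were 2207 and 1978 in the overexpressors and 482 and 555 in wild type.

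**Figure D1:**
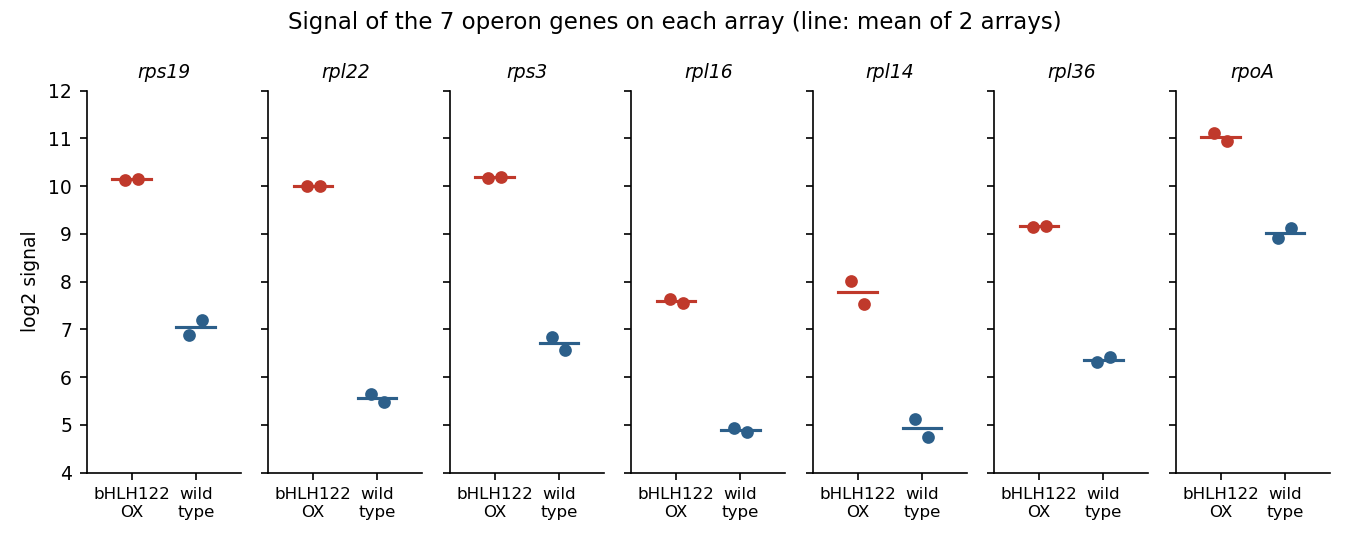
Log2 signal of each of the 7 genes, in operon order, on the 2 bHLH122 overexpressor arrays (red, left) and the 2 wild-type arrays (blue, right); each point is an array and each line the mean of a group. In every panel both red points lie above both blue points, with the widest separation for rpl22 (difference 4.42) and the narrowest for rpoA (2.01).

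Limma gave an adjusted p under 0.05 with a higher overexpressor mean to 7 of the 7 genes and to 12.2% of all probe sets, and both overexpressor arrays stood above both wild-type arrays for 7 of the 7 and for 29.1% of all probe sets. At least 2-fold higher with the groups apart were also 7 of the 7, and 1.60% of all probe sets. The choice of the genes used this same contrast, so nothing is read from these counts. At least 4-fold higher with the groups apart were 16 of the 22746 probe sets (0.0703%). These 16 included the 7 genes and no other named plastid probe set.

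The differences of the 7 genes were not alike on these probe sets. Each gene has 4 pairings of an overexpressor with a wild-type array, and the range over these pairings served as its spread. The pairings share arrays and are not independent, so overlap of ranges is a description and no test. Probe sets also differ in brightness. With 16 added to each signal, the difference of rpl16 went from 2.70 to 2.19 and that of rpoA from 2.01 to 1.98. Without the added 16, the range over pairings for rpl22 was 4.33 to 4.51, above the range of every other member. The ranges were 3.33 to 3.63 for rps3 and 2.92 to 3.26 for rps19, and these did not overlap. Next in order, rpl14 (2.42 to 3.27), rpl36 (2.72 to 2.86) and rpl16 (2.61 to 2.78) overlapped one another and cannot be ordered beyond their spread. The range of rpl14 also overlapped that of rps19. For rpoA the range was 1.83 to 2.19, below that of every other member. Of the 21 pairs of genes, 17 had ranges that did not overlap.

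Along the operon the difference was thus largest at rpl22 and rps3 and smaller towards rpoA. The log2 difference of rps19 minus that of rpl22 was -1.33, and rpl22 exceeded rps3 by 0.95. From rps3 to rpl16 the difference was smaller by 0.78, and from rpl36 to rpoA by 0.78.

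By role, the 4 genes for large-subunit proteins had differences from 2.70 to 4.42 with a median of 2.82, and the 2 genes for small-subunit proteins had 3.09 and 3.48. The single polymerase gene had the smallest value, 2.01. Position and role are tied here, since the gene for the polymerase subunit is also the last of the run.

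**Figure D2:**
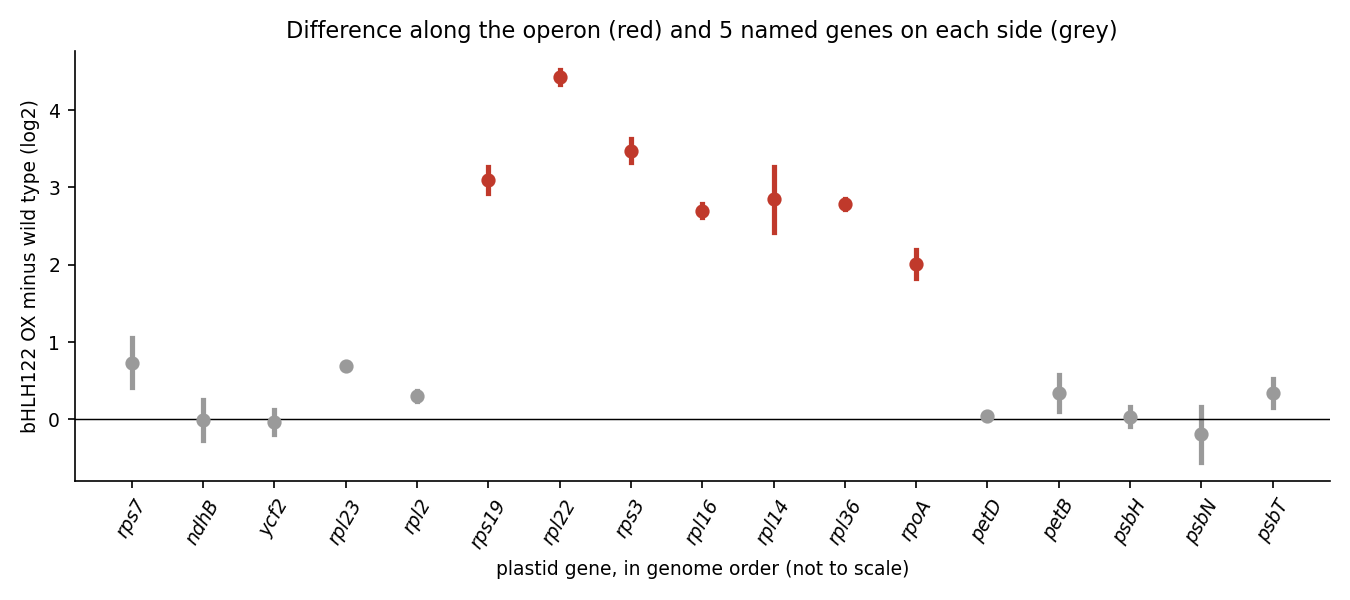
Overexpressor minus wild-type difference in log2 signal along the plastid genome, for the 7 operon genes (red) and 5 named genes on each side (grey); points are differences of group means and bars span the 4 pairings of an overexpressor with a wild-type array. The red genes lie between 2.01 and 4.42, and the grey genes between -0.19 and 0.73.

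The nearest genes on the rps19 side are rpl2 and rpl23, which encode proteins of the large subunit and belong to the same ancestral operon. Both lie in the inverted repeat, and their probe sets list both copies. The log2 signal of rpl2 was 12.53 and 12.41 in the overexpressors, against 12.16 and 12.17 in wild type, a difference of 0.31 (SE 0.10). For rpl23 it was 11.15 and 11.17 in the overexpressors, against 10.44 and 10.50 in wild type, a difference of 0.69 (SE 0.09). The groups did not overlap for either gene, but the difference of rps19 exceeded that of rpl2 by 2.79 on the log2 scale.
Farther out, rps7, which encodes a small-subunit protein, had a difference of 0.73 (SE 0.16). For ycf2 (-0.031) and the NDH subunit gene ndhB (-0.0069) the groups overlapped. The log2 signals of ycf2 and ndhB lay between 3.27 and 3.75 on all arrays, near the lower quartile, where a change can be understated.

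On the rpoA side the nearest gene is petD, which encodes a subunit of the cytochrome b6f complex. It had log2 signals of 3.44 and 3.41 in the overexpressors, against 3.38 and 3.40 in wild type, a difference of 0.038 (SE 0.09). All 4 values were below the lower quartile of their arrays, where a change is hard to see. The next gene, petB for cytochrome b6, was bright. It had log2 signals of 11.32 and 11.74 in the overexpressors, against 11.17 and 11.20 in wild type, a difference of 0.34 (SE 0.15), which was 1.67 less than that of rpoA.
Of the photosystem II genes that follow, psbH had a difference of 0.032 and psbN, needed for assembly of that photosystem, one of -0.19, and the groups overlapped for both. The probe set of psbT was dim, with a difference of 0.34 (SE 0.14). The 10 neighbours thus ran from -0.19 to 0.73, below the 2.01 of rpoA. The run of 7 was fixed by this contrast, so its edges were not tested.

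The 7 genes were also set beside the rest of the plastid genome. The other 62 plastid probe sets with 1 gene had a median difference of 0.34, which was 2.51 below the median of the 7. They ran from -0.63 for psaC, a photosystem I subunit gene, to 1.94 for ndhA, an NDH subunit gene. The log2 signal of ndhA was 11.31 and 11.19 in the overexpressors, against 9.28 and 9.34 in wild type. That of psaC was 4.65 and 4.20 in the overexpressors, against 5.13 and 4.99 in wild type. By limma 24 of the 62 were higher, 2 were lower and 36 did not pass, against 12.2% higher and 11.8% lower among all probe sets.
In plastid gene order, the 7 genes were the longest unbroken run of named probe sets at least 2-fold higher. The other runs of more than 1 gene were psbC with psbZ, accD with psaI, and ndhI with ndhA, each 2 genes long. These runs were found after the values were seen.

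**Figure D3:**
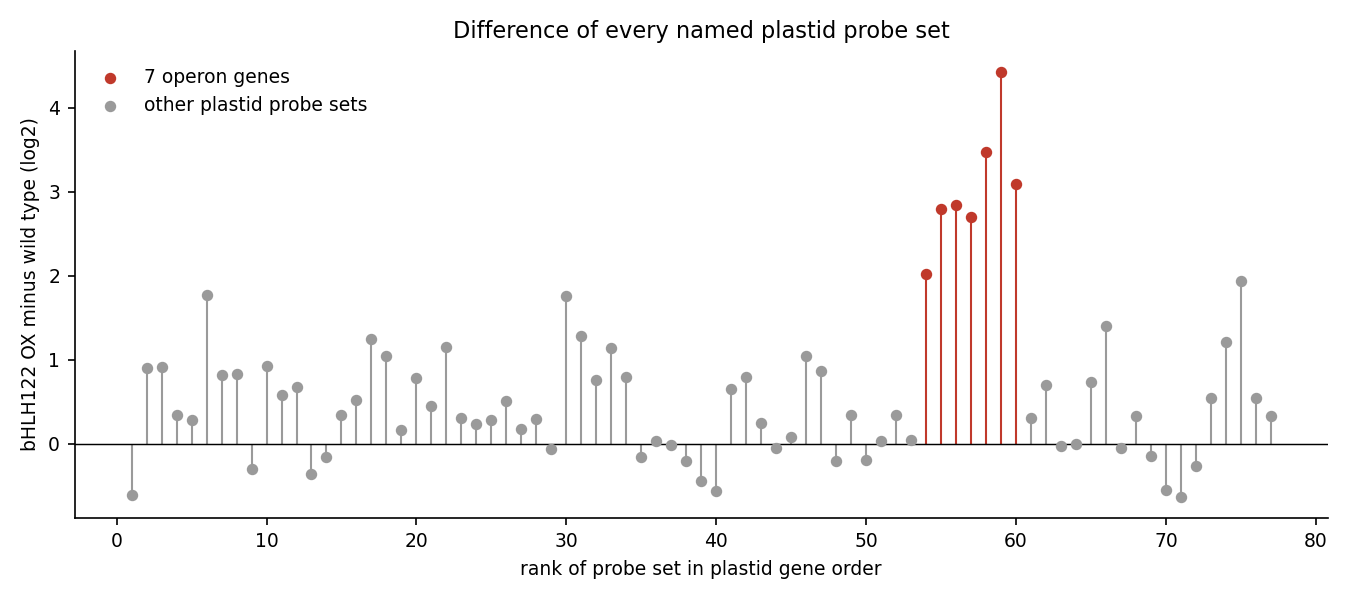
Overexpressor minus wild-type difference in log2 signal for all 77 named plastid probe sets in gene order, from psbA at the left; the run reads from rpoA to rps19 in this direction, the reverse of the map of the operon. The 7 operon genes (red) stand side by side above every other plastid probe set (grey), of which the highest is ndhA at 1.94.

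Plastid genes with the same functions but at other places had smaller differences. The 7 genes were chosen by this contrast, so setting them beside other genes is a description and no test. Of 9 other ribosomal protein genes of the plastid whose probe set has a single gene entry, 3 rose and none fell by limma (adjusted p under 0.05, reached by 24.0% of all probe sets in either direction), with a median of 0.32. The small-subunit gene rps2 rose by 0.92 (SE 0.12, limma adjusted p = 0.00407), rps16 by 0.92 (SE 0.19, limma adjusted p = 0.0181) and the large-subunit gene rpl33 by 0.79 (SE 0.12, limma adjusted p = 0.00610). The probe set of rps16 was dim, with log2 signals of 4.96 and 4.38 in the overexpressors, against 3.77 and 3.73 in wild type. The lowest value was that of rpl20, -0.052, which did not pass. A further 4 ribosomal protein genes, the neighbours rpl2, rpl23 and rps7 and the small-subunit gene rps12, have 5 probe sets that list 2 entries of the gene, and 3 of these probe sets rose. The probe sets of rps12 disagreed, with one at 1.04 (SE 0.12, limma adjusted p = 0.00339) and a dim one at 0.081 that did not pass. The one at 1.04 had log2 signals of 7.95 and 7.74 in the overexpressors, against 6.90 and 6.70 in wild type. The other subunits of the plastid-encoded polymerase are made from rpoB, rpoC1 and rpoC2, which lie together elsewhere in the plastid genome. The log2 signal of rpoC1 was 6.97 and 7.05 in the overexpressors, against 6.20 and 6.46 in wild type, and it rose by 0.68 (SE 0.12, limma adjusted p = 0.0108). The gene rpoC2 rose by 0.58 (limma adjusted p = 0.0238). Its log2 signals were low, 4.42 and 4.66 in the overexpressors, against 4.07 and 3.86 in wild type. The dim probe set of rpoB had a difference of -0.36 and did not pass (limma adjusted p = 0.0686). Of the 4 polymerase genes, rpoA alone was at least 2-fold higher in the overexpressors. Since rpoA was chosen by its higher signal in this contrast, nothing is read from this. The signals of rpoB and rpoC2 were low, where a change can be understated, so their differences are not directly comparable with that of rpoA.

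Most proteins of the plastid ribosome come from nuclear genes. Of 40 such genes listed, 10 had a named probe set, and none passed in limma, against 24.0% of all probe sets in either direction, nor had any an unadjusted p under 0.05. Their differences ran from -0.17 (AT5G65220) to 0.26 (AT4G17560), with a median of 0.11, while AT4G01310 had 0.18 and AT3G13120 had 0.14. The log2 signal of AT4G17560 averaged 10.13 ± 0.14 in overexpressor shoots and 9.87 ± 0.03 in wild-type shoots (SD, n = 2 each; limma adjusted p = 0.139). With an intensity trend and robust variance 2 of the 10 passed, AT4G17560 and AT4G01310, against 29.0% of all probe sets in either direction. Of 21 nuclear genes for plastid transcription, 1 had a named probe set, AT5G15700, with a difference of 0.0032 (limma adjusted p = 0.990). Its log2 signals were low, 4.01 and 4.06 in the overexpressors, against 3.95 and 4.12 in wild type, where a change can be understated.

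Long plastid transcripts are cut, spliced and trimmed by nuclear-encoded proteins. Of 21 genes listed for plastid RNA processing and decay, 4 had a named probe set, and all 4 rose by limma, against 12.2% of all probe sets. AT5G42310 rose by 1.14 (SE 0.15, limma adjusted p = 0.00492), with log2 signals averaging 7.92 ± 0.18 in overexpressor shoots and 6.77 ± 0.25 in wild-type shoots (SD, n = 2 each). The RNA helicase gene RH39 rose by 0.81 (SE 0.10, limma adjusted p = 0.00412), and its call held with any 1 array left out. AT2G18940 rose by 0.59 (limma adjusted p = 0.0344), and CAF1, whose protein helps splice plastid introns, by 0.45 (limma adjusted p = 0.0380). CAF1 lost its call with any 1 array left out, with differences of 0.37 and 0.53 when overexpressor replicate 1 or 2 was dropped, and of 0.35 and 0.54 when wild-type replicate 1 or 2 was. AT2G18940 lost its call when overexpressor replicate 1 (0.38) or either wild-type array (0.61 without replicate 1, 0.56 without replicate 2) was dropped. Over the alternatives the limma adjusted p of AT2G18940 ran from 0.00853 to 0.115 and that of CAF1 from 0.0251 to 0.158. With the replicate number as a block, CAF1 and AT2G18940 did not pass and 2 of the 4 did.

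The 5 named genes outside the run whose centred profile over the 4 arrays lay nearest to the mean profile of the 7 were all nuclear. They were AT4G09760 (Euclidean distance 0.71), the sucrose-phosphate synthase gene ATSPS4F (0.80), AT1G17360 (0.85), AT5G56850 (0.88) and AT1G12800 (0.92). The members themselves lay 0.26 (rps19) to 1.38 (rpl22) from that profile, and the median of all probe sets was 3.07. The differences of the 5 genes ran from 2.13 to 2.35, and a distance over 4 arrays in 2 groups is set largely by the size of that difference. AT4G09760 had log2 signals of 10.21 and 10.19 in the overexpressors, against 7.76 and 7.94 in wild type.

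**Figure D4:**
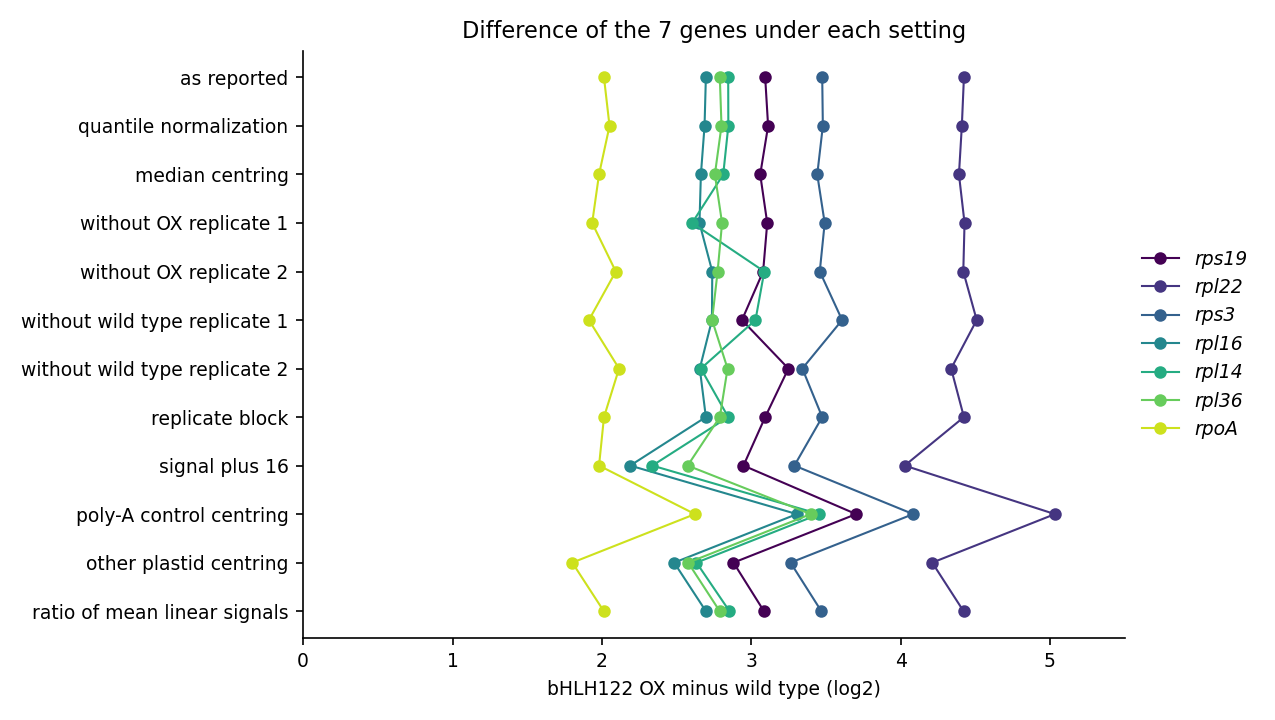
Overexpressor minus wild-type difference in log2 signal of each of the 7 genes (coloured lines) as reported and under 11 other settings (rows). All differences lie between 1.80 and 5.03, with rpl22 highest and rpoA lowest in every row. The rows of centring and of the replicate block could not change this order.

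The size of the differences depends on the scale chosen. Control RNAs with a poly-A tail had lower log2 signals in the overexpressors, with a median difference of -0.59 over 24 probe sets, and hybridization controls had one of -0.25 over 18. Centred on the poly-A controls, the median difference of the 7 genes was 3.45 and the difference of rpl22 was 5.03. Centred on the other plastid probe sets, the median was 2.63. The part of the controls in the differences was not tested. The labelling kit named in the labels starts from poly-A tails, which most plastid messenger RNAs carry only briefly, and the length of tail or the share of transcripts reached was not measured here. Leaf markers were bright, with log2 signals of 12.13 to 13.99 for the 3 of 12 with a named probe set, and the 2 of 11 root markers lay between 3.43 and 4.58. The summed signal of the leaf markers was 35753 and 32844 in the overexpressors, against 27048 and 27507 in wild type, and 2 of the 3 rose by limma, against 12.2% of all probe sets. Their part in the plastid differences was not tested. With 2 arrays a group, an exact permutation test cannot give a two-sided p below 0.333.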

How the data were processed

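The authors deposited linear signal intensities, 1 for every probe set on each of 4 arrays. Per the submitters' processing notes RMA was used; neither its version nor how its log2 output became linear is stated there. RMA summarises a probe set over its probes, and a normalization that equalizes arrays can alter a shift shared by many transcripts. Log2 of the deposited intensity was taken, with no further correction. Of 22810 probe sets, 64 controls were left out. The platform annotation gave 1 gene to 13513 of the 22746 others, several to 503 and none to 8730; 8 plastid probe sets list 2 entries of 1 gene, were named from it and stay outside counts over probe sets with 1 gene. Gene order and symbols came from the TAIR10.1 gene table. The group contrast was fitted by limma 3.58.1 under R 4.3.3 (lmFit, eBayes, two-sided, Benjamini-Hochberg over 22746 probe sets, threshold 0.05), with 2 residual and 4.24 prior degrees of freedom. Median signal was 40.8 and 40.2 in the overexpressors and 39.2 and 40.0 in wild type, and the number of arrays limits precision. The fit was run on data simulated from its own fitted variances, which checks the code and not whether its assumptions hold for these arrays.

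The 7 genes and the lists were chosen with earlier results of these data known. Named genes were the 7, up to 5 named plastid genes on each side, up to 4 per nuclear list with the smallest p, the highest and lowest other plastid gene and the 5 nearest profiles; other plastid ribosomal and polymerase genes were named after their values were seen. No detection calls were used. No sequences are printed, since none were used here, and some items inside the run are not reported here. Settings tried were quantile normalization, centring on medians, poly-A controls or other plastid probe sets, an offset of 16, dropping each array, blocking on the replicate number, a filter on dim probe sets, an intensity trend, ordinary statistics and a ratio of linear means.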

Additional observations from a re-analysis of the deposited data

How the results depend on the processing

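The 7 genes kept a positive difference under all 11 settings tried for them, between 1.80 and 5.03, with rpl22 highest and rpoA lowest each time. Centring shifts all 7 genes alike, and the replicate block changes no difference. These settings therefore could not reorder the 7 genes. Their median of 2.85 moved to 2.57 with 16 added to each signal, 3.45 with centring on the poly-A controls, 2.63 with centring on the other plastid probe sets, and 2.80 to 3.08 with 1 array left out. Its excess of 2.51 over the other plastid probe sets moved to 2.28 with 16 added, and ranged from 2.51 to 2.72 with 1 array left out. The number of probe sets past the threshold, 5460, was 3318 to 3586 with 1 array left out, 3612 with the replicate block and 5 with ordinary statistics, which share no variance between probe sets. The deviations of same-numbered arrays from their group means had a correlation of -0.041 over probe sets. With 2 arrays a group, this value cannot show whether the replicate numbers pair the arrays. Of the nuclear pathway genes 4 passed, 2 with the replicate block and 2 to 3 with 1 array left out. The 4 that passed as reported were all of the 4 tested for plastid RNA processing and decay. None of the 10 tested for plastid ribosomal proteins passed, nor did the 1 for plastid transcription. Of all probe sets, 24.0% passed in either direction. AT5G15700, which had no call, changed sign with median centring (-0.030) and ranged from -0.083 to 0.089 with 1 array left out. Fewer samples or degrees of freedom lower the power of a fit by construction, but with an array left out the differences moved as well. With the replicate block the differences of AT2G18940 (0.59) and CAF1 (0.45) were unchanged, and their calls were lost. The cause of the lost calls was not tested. The added 16 shrinks differences of dim signals by construction, and the cause of the sign changes was not tested. Without detection calls, the height of a signal over background is not known. This limit weighs most on dim probe sets, among them those of petD, ycf2, ndhB, psbT, rpoB, rps16 and AT5G15700.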
